A study of Homo sapiens with 24 samples.

Results

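The genes described here belong to the ATF4 arm of the integrated stress response. They are ATF4 itself and 9 genes known as its targets or partners: DDIT3, DDIT4, TRIB3, ASNS, CHAC1, SESN2, PSAT1, PHGDH and SLC7A11. They were chosen by name, and all 10 were found among the 59609 named genes of the count table. Transcript levels were read by 3′ RNA-seq, in which each read comes from near the poly(A) end of a transcript, in 24 libraries from 2 ER-negative breast cancer lines with the genotype given as wild-type. The lines were MDA-MB-231, a mesenchymal line grown in RPMI-1640 with GlutaMAX and HEPES, and MDA-MB-453, an epithelial line grown in DMEM, both with FBS. Cells of each line received DMSO, the CDK4/6 inhibitor abemaciclib at 500 nM, the selective oestrogen receptor degrader fulvestrant at 5 nM, or both drugs for 5 days, with 3 libraries in each of the 8 groups. The line, its medium and its culture therefore cannot be told apart in any comparison between lines.

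The integrated stress response starts when any of the kinases PERK, GCN2, PKR and HRI phosphorylates the translation factor eIF2α, as in ER stress, amino acid shortage, viral infection or haem and mitochondrial stress. General protein synthesis then slows, while ATF4 mRNA, whose upstream reading frames normally hold it back, is translated more. The ATF4 protein pairs with C/EBP factors on composite DNA elements and switches on genes for amino acid synthesis, uptake and, under long stress, cell death. Much of the control of ATF4 is translational, so its mRNA level does not give its protein level.

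The promoters below show where such an element was looked for. C/EBP-ATF elements were searched as TGATGNAA on both strands, in windows from 250 bases before to 50 bases after each RefSeq start site (GRCh38.p14). The window table had entries for 9 of the 10 genes, with 14 windows in all, and SLC7A11 had no entry. A match was found in 2 genes, CHAC1 and ASNS, and in 2 of the 14 windows, while 1270 of all 35116 windows, or 3.62%, held one. The 250 bases before the start are printed for these genes and for DDIT4 and PHGDH, whose transcripts moved most and whose windows held no match. Capitals mark the match, which lies 209 to 202 bases before the start in CHAC1 and 68 to 61 before it in ASNS.
CHAC1, chr15:40953221-40953470, plus strand: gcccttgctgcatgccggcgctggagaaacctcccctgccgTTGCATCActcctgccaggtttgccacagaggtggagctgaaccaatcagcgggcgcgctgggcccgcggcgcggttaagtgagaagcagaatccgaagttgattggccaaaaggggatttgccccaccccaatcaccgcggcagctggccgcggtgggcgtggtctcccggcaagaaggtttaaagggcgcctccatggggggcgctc
ASNS, chr7:97872409-97872658, minus strand: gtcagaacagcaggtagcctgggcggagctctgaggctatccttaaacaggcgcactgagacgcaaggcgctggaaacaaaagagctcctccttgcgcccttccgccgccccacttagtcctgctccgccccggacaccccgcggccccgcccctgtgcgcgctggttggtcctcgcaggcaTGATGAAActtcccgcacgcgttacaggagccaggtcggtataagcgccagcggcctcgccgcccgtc
DDIT4, chr10:72273674-72273923, plus strand: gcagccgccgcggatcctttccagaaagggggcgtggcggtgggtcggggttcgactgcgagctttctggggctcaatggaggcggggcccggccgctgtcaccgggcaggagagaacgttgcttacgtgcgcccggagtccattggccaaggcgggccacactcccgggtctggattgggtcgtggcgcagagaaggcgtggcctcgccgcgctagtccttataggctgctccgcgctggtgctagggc
PHGDH, chr1:119711684-119711933, plus strand: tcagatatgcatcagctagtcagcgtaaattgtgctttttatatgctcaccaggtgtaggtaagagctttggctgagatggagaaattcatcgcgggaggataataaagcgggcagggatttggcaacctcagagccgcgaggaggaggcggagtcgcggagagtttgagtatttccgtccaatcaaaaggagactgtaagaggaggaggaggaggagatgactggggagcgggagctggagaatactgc
The antioxidant element that NRF2 binds, searched as TGACNNNGC on both strands, was matched in 1 of the 9 genes, TRIB3. It was the same site in all 3 of its overlapping windows. These were 3 of the 14 windows, against 13.3% of all windows. These matches are letters in a sequence and say nothing of binding in these cells.

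Library totals lay between 2873558 and 4158762 counts. Levels are CPM, each count over the library size as corrected with TMM factors (trimmed mean of M values), and 3 counts over a group of 3 libraries corresponded to 0.249 to 0.299 CPM. Markers separated the lines: the mesenchymal markers VIM and CD44 were at 0 in all 12 MDA-MB-453 libraries and had counts in all 12 MDA-MB-231 libraries. The mitochondrial share of the counts moved with treatment. In MDA-MB-231 it was 8.83% ± 0.213 (SD, n = 3) under DMSO, 12.2% ± 1.05 under abemaciclib and 13.7% ± 0.319 under both drugs. The MDA-MB-453 shares were 15.2% ± 0.650, 23.8% ± 1.91 and 21.2% ± 0.381 for the same treatments. The numbers of these 10 genes called in each comparison were the same without the mitochondrial genes.

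With abemaciclib, DDIT4 rose in both lines and by more on the log2 scale in MDA-MB-231, ATF4 fell in MDA-MB-231, and PHGDH fell steeply in MDA-MB-453. Of the 9 genes of the group with enough counts to test in MDA-MB-231, abemaciclib raised 1 and lowered 1, while 33.7% of all 11314 genes tested were called in that comparison. In MDA-MB-453, where PSAT1 also lacked the counts for a test, it raised 2 and lowered 2 of 8, against 36% of 11080 genes. The combination called 1 higher and 2 lower of 9 in MDA-MB-231 (35.4% of all genes) and 4 higher and 2 lower of 8 in MDA-MB-453 (37.6%). The group as a whole did not move one way: its median log2 fold change in MDA-MB-231 was -0.29 with abemaciclib and -0.40 with the combination, the values for MDA-MB-453 were 0.09 and 0.20, with the median of all genes between -0.01 and 0.00. The 3 libraries of a treatment did not overlap those of DMSO for 44.2% of genes with abemaciclib and 46.9% with the combination in MDA-MB-231, and for 45.3% and 49% in MDA-MB-453. Calls here are at an adjusted p under 0.05 in edgeR's quasi-likelihood test with Benjamini-Hochberg adjustment over all genes tested. That is the test behind every adjusted p below. Where a fold change is followed by ±, the value is its SE, and fold changes of the pathway list genes are given without it. Treatments of a line share the same DMSO libraries.

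**Figure D1:**
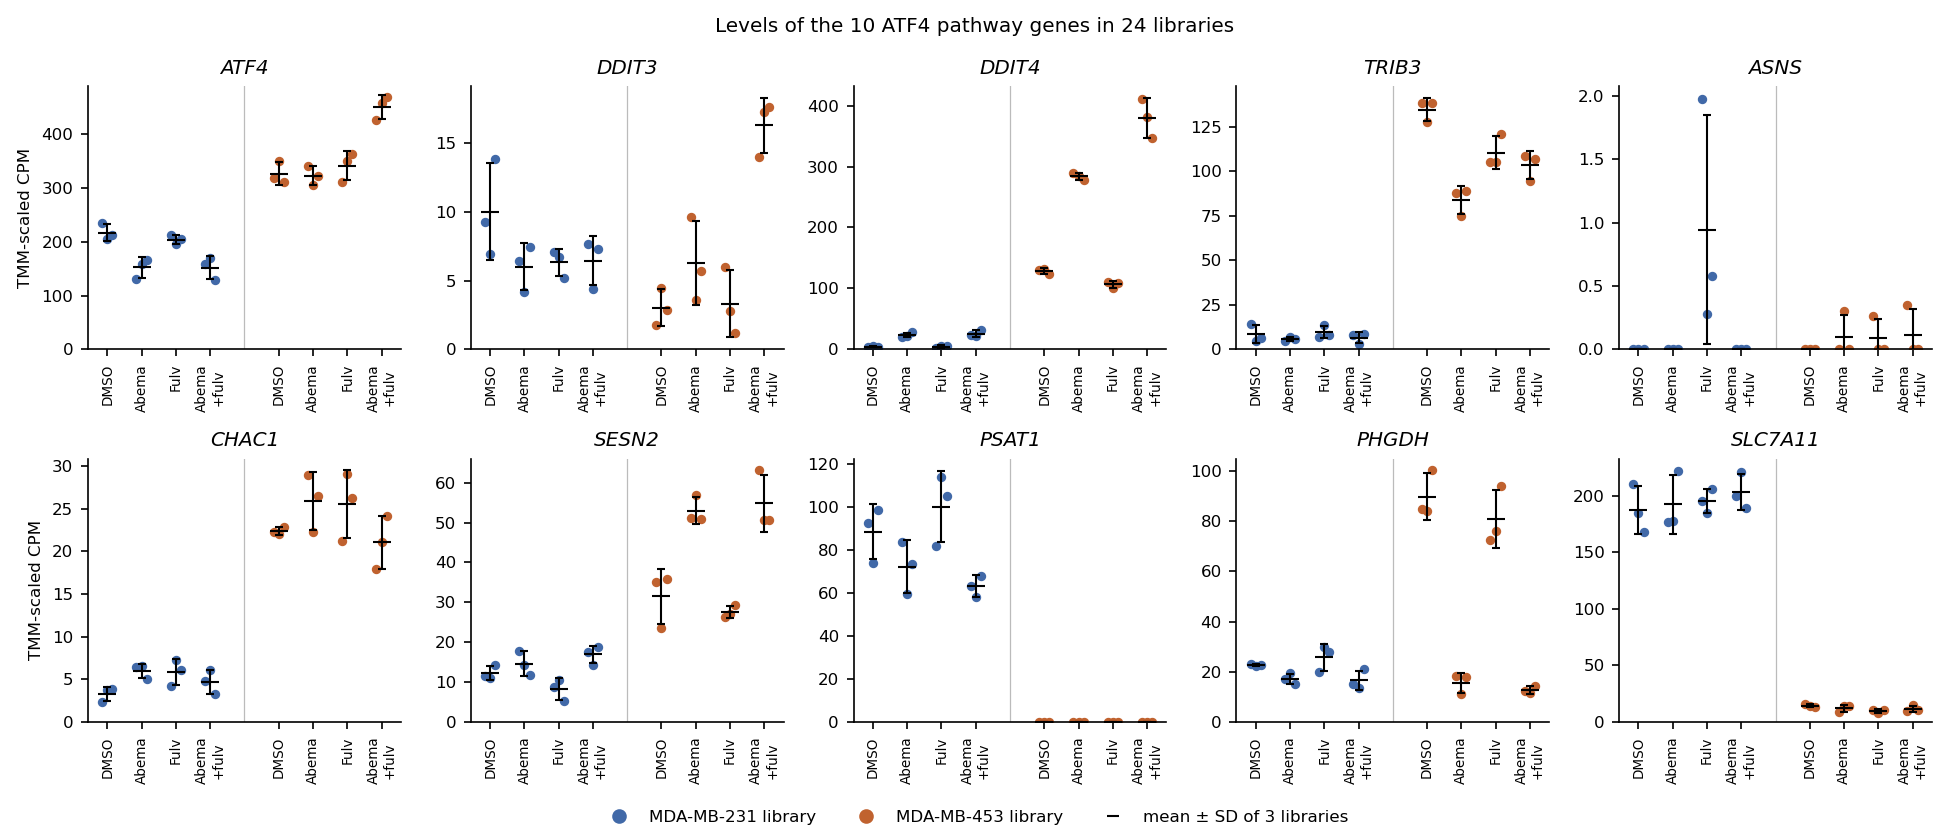
Level of each of the 10 genes in TMM-scaled CPM (vertical axis, starting at 0, a scale of its own for each gene) in every library, by treatment; points are libraries, coloured by line, and bars are the mean ± SD of 3 libraries. DDIT4 stands higher with abemaciclib and with the combination in both lines, PHGDH drops under the same treatments in MDA-MB-453, and PSAT1 lies at 0 throughout MDA-MB-453.

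ATF4 (chr22:39519695-39522683, GRCh38), the transcription factor that gives the pathway its name, moved in opposite directions in the lines under the combination. In MDA-MB-231 its level under DMSO was 235, 205 and 212 CPM in replicates 1, 2 and 3. With abemaciclib it was 131, 159.8 and 167 CPM, and with the combination 159, 169 and 128 CPM. All 6 treated libraries lay below the 3 DMSO libraries. The log2 fold changes were -0.51 ± 0.11 for abemaciclib (adjusted p = 0.000351) and -0.51 ± 0.11 for the combination (adjusted p = 0.000292). Fulvestrant alone left 212, 196 and 205 CPM, which overlapped DMSO (log2 fold change -0.09, 95% interval -0.31 to 0.13).

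In MDA-MB-453, ATF4 stood at 319, 351 and 311 CPM under DMSO and at 342, 306 and 322 CPM with abemaciclib. These libraries overlapped, with a log2 fold change of -0.02 (95% interval -0.20 to 0.15). The combination gave 427, 458 and 469 CPM, above every other library of the line. Its log2 fold change was 0.48 ± 0.09 against DMSO (adjusted p = 1.32e-05) and 0.50 ± 0.09 against abemaciclib alone (adjusted p = 0.000263). Rows of the ATF4 pseudogenes ATF4P1 to ATF4P4 held between 0 and 2 counts each over all 24 libraries.

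DDIT3 (chr12:57516588-57521737) encodes CHOP, the bZIP factor that ATF4 induces and that is linked to cell death in long ER stress. It was a low transcript, with 4 to 47 counts in each library outside the MDA-MB-453 combination group. In that group it had 40, 59 and 68 counts, or 14.0, 17.3 and 17.6 CPM. Under DMSO the line had 1.78, 4.45 and 2.90 CPM, and with abemaciclib 9.64, 3.61 and 5.69 CPM. The 3 combination libraries exceeded all others of either line, and the abemaciclib libraries overlapped DMSO. The combination raised DDIT3 by 2.42 ± 0.44 on the log2 scale (adjusted p = 1.64e-05 over all genes). Abemaciclib alone gave 1.04 ± 0.47, short of the threshold (adjusted p = 0.0784), though the change was called without DMSO replicate 2 (adjusted p = 0.0474) or without abemaciclib replicate 2 (0.0327). The combination against abemaciclib gave 1.37 ± 0.40 (adjusted p = 0.0535), which was called when only these groups were fitted (0.0117), with no filter on low counts (0.0222) and without abemaciclib replicate 1 (0.0128).

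In MDA-MB-231, DDIT3 was at 9.25, 6.92 and 13.9 CPM under DMSO. The 3 treatments together spanned 4.17 to 7.64 CPM, a range that overlapped DMSO. The log2 fold changes were -0.72 for abemaciclib (95% interval -1.49 to 0.05), -0.63 for the combination (-1.39 to 0.13) and -0.66 for fulvestrant (-1.43 to 0.11), and none was called. In GENCODE v44, 355 of the 1307 exon bases of DDIT3 are shared with MARS1 on the other strand, of which 68 lie in its last 500 exon bases, where 3′ reads fall. The strand used for counting was not given in the sources used here. MARS1, a methionyl-tRNA synthetase, fell in MDA-MB-231 with the combination (log2 fold change -1.02), in the same direction as the uncalled change of DDIT3. In MDA-MB-453 MARS1 also fell with the combination (log2 fold change -0.57), in the direction opposite to DDIT3. MBD6 on the other strand shares 58 exon bases of DDIT3, and ENSG00000285133 on the same strand shares 105. For both, 0 of these lie in the last 500. In MDA-MB-453 MBD6 averaged 40.1 ± 11.3 CPM (SD) under DMSO and 53.0 ± 9.16 CPM (SD) with the combination. The same averages in MDA-MB-231 were 23.3 ± 2.36 and 17.2 ± 2.00 CPM (SD). Whether reads from MARS1 or these genes entered the DDIT3 counts was not tested.

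TRIB3 (chr20:362835-397559), a pseudokinase induced by ATF4 and CHOP that dampens ATF4 and AKT, fell in MDA-MB-453. Its DMSO level was 138, 127 and 138 CPM, and abemaciclib gave 88.1, 75.0 and 89.1 CPM. The combination gave 109, 94.6 and 107 CPM, so that neither treated group overlapped DMSO. The log2 fold changes were -0.69 ± 0.11 with abemaciclib (adjusted p = 3.2e-06) and -0.37 ± 0.11 with the combination (adjusted p = 0.00738). Without combination replicate 2 the latter was no longer called, at -0.31 (adjusted p = 0.0615). Fulvestrant gave 105, 105 and 121 CPM, below DMSO in all 3 libraries, a separation found in 17% of genes for this comparison, with a log2 fold change of -0.28 ± 0.11 that was not called (adjusted p = 0.22). In MDA-MB-231 TRIB3 was low, from 3.02 to 14.3 CPM over the 12 libraries, and no treatment was called.

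DDIT4 (chr10:72273919-72276036) encodes REDD1, which restrains the growth kinase complex mTORC1 through TSC1 and TSC2 and which ATF4, p53 and hypoxia can all induce. It rose in every comparison of abemaciclib or the combination with DMSO. In MDA-MB-231 the DMSO libraries held 4.48, 6.06 and 3.54 CPM, from 12 to 21 counts. Abemaciclib gave 20.7, 22.3 and 27.8 CPM and the combination 23.4, 22.8 and 31.9 CPM. Every treated library was above every DMSO library, with log2 fold changes of 2.32 ± 0.30 (adjusted p = 3.55e-08) and 2.46 ± 0.30 (adjusted p = 6.38e-09).

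In MDA-MB-453, where DDIT4 began far higher, DMSO gave 130.2, 133 and 124 CPM. Abemaciclib gave 289, 285 and 278 CPM, and the combination 411, 381 and 346 CPM. The 3 groups formed separate ranges in that order. Abemaciclib and combination libraries did not overlap for 19.8% of genes in this line. DDIT4 rose by 1.13 ± 0.09 on the log2 scale with abemaciclib (adjusted p = 9.47e-14) and by 1.57 ± 0.09 with the combination (adjusted p = 1.47e-18). The step from abemaciclib to the combination was 0.44 ± 0.09 (adjusted p = 0.00294), which fell short without combination replicate 1 (0.37, adjusted p = 0.0591). In MDA-MB-231 the same step was 0.14 (95% interval -0.35 to 0.63). Fulvestrant alone gave 111, 100.4 and 108 CPM in MDA-MB-453, below all DMSO libraries, a separation found in 17% of genes for this comparison. The log2 fold change of -0.26 ± 0.10 was not called (adjusted p = 0.179).

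SESN2 (chr1:28259518-28282491), a leucine sensor and mTORC1 inhibitor of the sestrin family, rose in MDA-MB-453. Its level was 34.99, 23.6 and 35.9 CPM under DMSO, 51.1, 56.9 and 50.9 CPM with abemaciclib, and 63.1, 50.7 and 50.6 CPM with the combination. All 6 treated libraries exceeded the DMSO libraries. The log2 fold changes were 0.75 ± 0.17 (adjusted p = 0.000413) and 0.81 ± 0.17 (adjusted p = 0.000138). In MDA-MB-231 the DMSO libraries held 11.6, 11.0 and 14.2 CPM, abemaciclib 17.9, 14.3 and 11.7 CPM, and the combination 17.7, 14.4 and 18.7 CPM. There the intervals of the log2 fold change were -0.31 to 0.82 for abemaciclib and -0.09 to 1.02 for the combination, and neither was called. Fulvestrant gave 5.22 to 10.6 CPM in MDA-MB-231, and its log2 fold change of -0.57 ± 0.30 was not called (adjusted p = 0.72).

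CHAC1 (chr15:40952962-40956512), which breaks down glutathione and whose promoter holds the element printed above, was not called for any treatment in either line. In MDA-MB-453 it stood at 22.2, 22.0 and 22.9 CPM under DMSO, 28.9, 22.3 and 26.4 CPM with abemaciclib, and 17.9, 21.1 and 24.1 CPM with the combination. The groups overlapped, with intervals of -0.21 to 0.63 and -0.50 to 0.36 for the log2 fold change. In MDA-MB-231 it had 8 to 13 counts in each DMSO library, or 2.39 to 3.84 CPM. Abemaciclib gave 5.07 to 6.55 CPM with no overlap, and the log2 fold change of 0.85 ± 0.47 was not called (adjusted p = 0.165). Fulvestrant gave 4.24 to 7.28 CPM and a similar log2 fold change of 0.81 ± 0.47 that was not called either (adjusted p = 0.746), and the combination gave 3.29 to 6.04 CPM, which overlapped DMSO.

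SLC7A11 (chr4:138164097-138242349), the cystine-glutamate exchanger xCT that feeds glutathione synthesis and answers to both ATF4 and NRF2, was likewise not called for any treatment. In MDA-MB-231 it was high throughout, at 210.3, 185 and 168 CPM under DMSO, 177, 178 and 222 CPM with abemaciclib, and 200.3, 221 and 189 CPM with the combination. Its log2 fold change with abemaciclib was 0.04 with the narrow interval of -0.18 to 0.26. In MDA-MB-453 its 12 libraries spanned 7.65 to 15.7 CPM. Fulvestrant gave 7.65 to 11.0 CPM there, below the DMSO libraries at 13.0 to 15.7 CPM, a separation found in 17% of genes for this comparison. The log2 fold change of -0.54 ± 0.29 was not called (adjusted p = 0.421). Its antisense neighbour SLC7A11-AS1 had 1 count in all.

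PHGDH (chr1:119648411-119744218), the first enzyme of serine synthesis from glucose, had the largest treatment change of the group. In MDA-MB-453 the DMSO libraries held 84.8, 84.0 and 100.5 CPM. Abemaciclib left 18.2, 11.1 and 17.7 CPM, and the combination 12.3, 11.4 and 14.5 CPM. No treated library came near DMSO, and the log2 fold changes were -2.52 ± 0.17 (adjusted p = 2.54e-16) and -2.79 ± 0.18 (adjusted p = 1.71e-17). Fulvestrant left 72.7, 76.0 and 94.0 CPM, which overlapped DMSO. In MDA-MB-231 DMSO gave 23.0, 22.5 and 22.7 CPM, abemaciclib 17.0, 19.3 and 15.2 CPM, and the combination 15.0, 13.7 and 21.0 CPM. All 6 treated libraries there were lower than DMSO, but the log2 fold changes of -0.40 ± 0.23 and -0.45 ± 0.23 were not called (adjusted p = 0.176 and 0.114). The latter was called without combination replicate 3 (-0.66, adjusted p = 0.0445).

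PSAT1 (chr9:78297125-78330093), the aminotransferase that follows PHGDH in serine synthesis, had no count in any of the 12 MDA-MB-453 libraries. That line thus held PHGDH transcripts and no detectable PSAT1 at this depth, where 3 counts over a group correspond to 0.270 to 0.299 CPM. In MDA-MB-231 PSAT1 was at 92.8, 74.2 and 98.6 CPM under DMSO, 83.8, 59.5 and 73.7 CPM with abemaciclib, and 63.5, 58.0 and 68.0 CPM with the combination. The combination libraries lay below DMSO, and those of abemaciclib overlapped it. The combination lowered PSAT1, with a log2 fold change of -0.48 ± 0.14 (adjusted p = 0.00662), a call that was lost without DMSO replicate 3 (adjusted p = 0.0723). Abemaciclib alone gave -0.29 ± 0.14 (adjusted p = 0.118), called without DMSO replicate 2 (-0.40, adjusted p = 0.0479). Fulvestrant gave 81.9, 114 and 105 CPM. The rows of PSAT1P1 to PSAT1P4 were at 0 in all 24 libraries.

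ASNS (chr7:97851677-97872542), asparagine synthetase and a classical ATF4 target, was listed at or near 0 and could not be tested. MDA-MB-231 had 7, 1 and 2 counts with fulvestrant and none in the other 9 libraries. MDA-MB-453 had 1 count in 1 library each of abemaciclib, fulvestrant and the combination, and none elsewhere. In GENCODE v44, a later release than the one used for the counts, a lncRNA on the same strand, ENSG00000284707, shares 2415 of the 4896 exon bases of ASNS and 489 of its last 500, the stretch that 3′ reads cover. How reads in bases shared by 2 genes were counted is not given in the sources used here, the overlap may differ in the release used, and whether it set the ASNS counts was not tested. Its level in these cells therefore cannot be read from the table.

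**Figure D2:**
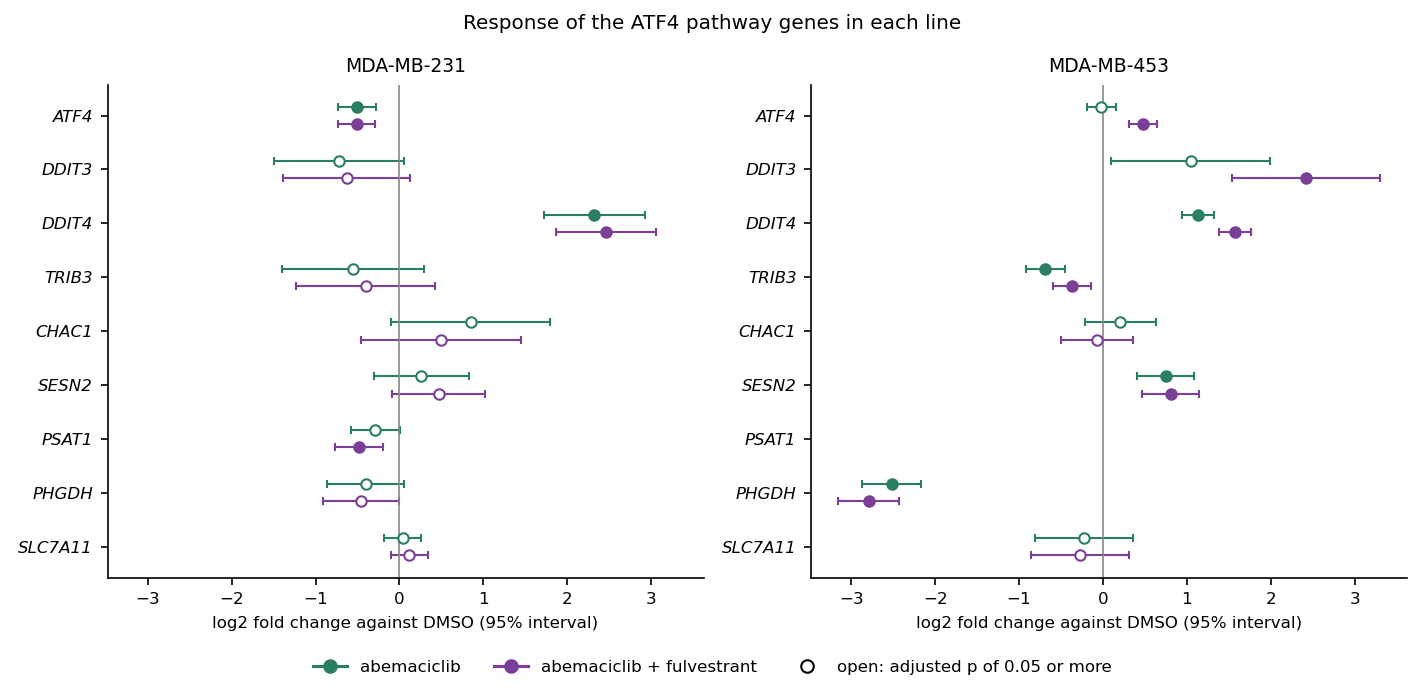
log2 fold change against DMSO (horizontal axis) with its 95% interval for the tested genes in MDA-MB-231 (left) and MDA-MB-453 (right); green is abemaciclib, purple the combination, and open circles are changes with an adjusted p of 0.05 or more. DDIT4 lies to the right in both panels, ATF4 lies left of 0 in MDA-MB-231 and right of 0 with the combination in MDA-MB-453, and PHGDH is farthest left in MDA-MB-453.

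Fulvestrant alone, the question being whether it acts on these genes in ER-negative cells, called 0 of the 9 tested genes in MDA-MB-231 and 0 of the 8 in MDA-MB-453 in edgeR and also in DESeq2. At an unadjusted p under 0.05 the numbers were 0 and 2, the latter being DDIT4 and TRIB3. Over all genes, 0% and 1.41% were called. Added to abemaciclib, fulvestrant called 0 of 9 genes in MDA-MB-231, where 0.0265% of all genes were called. In MDA-MB-453 it called 2 of 8, ATF4 and DDIT4, both higher, where 2.46% of all genes were called. DDIT3 and TRIB3 also stood higher in all 3 combination libraries than in all 3 abemaciclib libraries of that line, a separation found in 19.8% of genes, and were not called.

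Under DMSO, all 9 genes that could be tested differed between the lines, in a comparison where 69.8% of 12750 genes were called. The genes higher in MDA-MB-453 were DDIT4 (log2 difference 4.77 ± 0.18), TRIB3 (3.97 ± 0.22), CHAC1 (2.73 ± 0.30), PHGDH (1.98 ± 0.18), SESN2 (1.36 ± 0.22) and ATF4 (0.59 ± 0.10), with adjusted p from 1.07e-27 for DDIT4 to 1.23e-06 for ATF4. Those lower were SLC7A11 (-3.71 ± 0.16, adjusted p = 5.8e-26), DDIT3 (-1.70 ± 0.44, adjusted p = 0.000701) and PSAT1, which was at least 307-fold lower against the floor of 3 counts over the group. The 3 libraries of each line did not overlap for any of these 9 genes, as for 72.7% of all genes. ATF4 differed least while 3 of its known targets, DDIT4, TRIB3 and CHAC1, differed most among the genes higher in MDA-MB-453, and its target SLC7A11 differed in the other direction.

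The responses to the drugs were also compared between the lines, as the log2 fold change of MDA-MB-453 minus the one of MDA-MB-231. For abemaciclib, 4 of the 8 genes that can be compared differed, where 20.7% of all genes did. The differences were 0.49 ± 0.14 for ATF4 (adjusted p = 0.00914), 1.77 ± 0.61 for DDIT3 (adjusted p = 0.0311), -1.18 ± 0.26 for DDIT4 (adjusted p = 0.000493) and -2.11 ± 0.28 for PHGDH (adjusted p = 1.17e-07). The call for ATF4 was lost on leaving out any of 5 libraries, with values from 0.32 to 0.41 and adjusted p from 0.0524 to 0.129. These were DMSO replicate 1 or abemaciclib replicate 1 of MDA-MB-231, and DMSO replicate 1 or 3 or abemaciclib replicate 1 of MDA-MB-453. The call for DDIT3 was lost on leaving out any of 6, with values from 1.25 to 1.75 and adjusted p from 0.0561 to 0.191. These were DMSO replicate 3 or abemaciclib replicate 1 or 2 of MDA-MB-231, and DMSO replicate 1, DMSO replicate 3 or abemaciclib replicate 1 of MDA-MB-453. With both drugs the same 4 genes differed, where 17.7% of all genes did. The differences were 0.98 ± 0.14 for ATF4 (adjusted p = 5.5e-07), 3.04 ± 0.58 for DDIT3 (adjusted p = 9.37e-05), -0.90 ± 0.26 for DDIT4 (adjusted p = 0.00869) and -2.35 ± 0.29 for PHGDH (adjusted p = 1.09e-08). These 4 calls held without any 1 library. For TRIB3, CHAC1, SESN2 and SLC7A11 no difference in response was called, with intervals as wide as -1.43 to 0.28 for CHAC1 with the combination. The response of PSAT1 cannot be compared, since it was at 0 in MDA-MB-453.

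**Figure D3:**
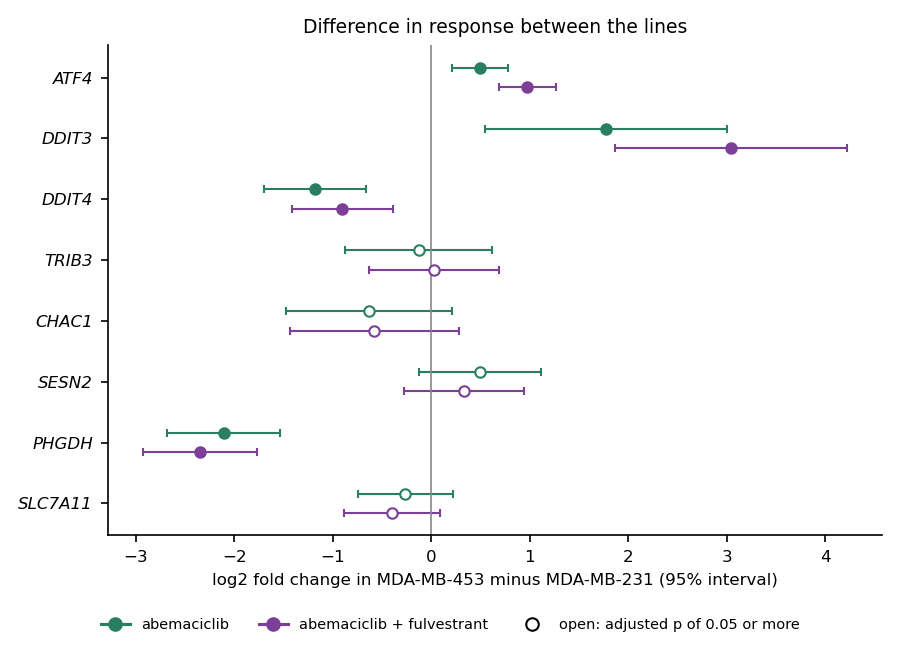
Difference in log2 fold change against DMSO, MDA-MB-453 minus MDA-MB-231 (horizontal axis), with its 95% interval, for the 8 genes with counts in both lines; green is abemaciclib, purple the combination, and open circles are differences with an adjusted p of 0.05 or more. ATF4 and DDIT3 lie to the right of 0, and DDIT4 and PHGDH to the left, under both treatments.

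The other genes of the pathway were followed through 8 lists of 125 genes, named for their roles. Of 116 tested in MDA-MB-231, abemaciclib raised 15 and lowered 36. Of 117 tested in MDA-MB-453, it raised 23 and lowered 33. Of all genes tested, 16.9% rose and 16.9% fell in the first line, and 16.6% rose and 19.4% fell in the second. The combination raised 11 and lowered 42 list genes of MDA-MB-231, whereas 17% of all genes rose and 18.3% fell. It raised 23 and lowered 43 list genes of MDA-MB-453, whereas 17.6% of all genes rose and 20% fell.

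In the lists that supply amino acids and charge tRNAs, more of the called genes fell than rose in both lines. Among the cytosolic aminoacyl-tRNA synthetases, which load amino acids on tRNAs and which ATF4 induces in part, abemaciclib lowered 12 of 20 and raised 1 in MDA-MB-231, with a median log2 fold change of -0.40. It lowered 9 and raised 1 in MDA-MB-453 (median -0.22), and the combination lowered 12 and 15. MARS1 fell by 0.89 on the log2 scale in MDA-MB-231 and FARSA by 0.80 in MDA-MB-453. Of 8 amino acid transporters, 5 fell and 1 rose with abemaciclib in each line. SLC7A5, the leucine carrier of the LAT1 exchanger, changed by -1.27 on the log2 scale in the first line and -1.62 in the second, and the glutamine carrier SLC1A5 had -1.13 and -0.85.

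Of the amino acid and one-carbon enzymes, abemaciclib lowered 5 of 12 in MDA-MB-231 and 5 of 10 in MDA-MB-453 and raised 0 in each, with medians of -0.27 and -0.61. For MDA-MB-231 the log2 fold change of the mitochondrial folate enzyme MTHFD1L was -1.02. The mitochondrial serine hydroxymethyltransferase SHMT2, which uses serine, had -0.81 in MDA-MB-453, and the cytosolic folate enzyme MTHFD1 had -1.10.

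ER chaperones and the other arms of the unfolded protein response moved in MDA-MB-453, where abemaciclib raised 10 of 19 and lowered 2 (median 0.44). In MDA-MB-231 it raised 2 and lowered 3 (median 0.01). ERN1, which encodes the sensor IRE1α, rose in MDA-MB-453 by 1.78 with abemaciclib and by 2.35 with the combination on the log2 scale, while XBP1, whose mRNA IRE1α splices, changed by -0.40 and -0.43. SEL1L, an adaptor of ER-associated degradation, rose with abemaciclib by 0.81 in MDA-MB-231 and, likewise on the log2 scale, by 0.71 in MDA-MB-453.

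Among eIF2 kinases and the genes that set eIF2 phosphorylation, abemaciclib raised 5 and lowered 3 of 18 in MDA-MB-231 and raised 4 and lowered 5 of 18 in MDA-MB-453. EIF2S1, which encodes eIF2α, had log2 fold changes of -0.67 and -0.54. With the combination in MDA-MB-453, 4 of the 18 rose and 5 fell. Among those that rose, PPP1R15A, the GADD34 subunit that brings a phosphatase to eIF2α, changed by 1.33 (adjusted p = 0.00161). EIF2AK3, which encodes PERK, rose by 0.70 (adjusted p = 0.0256). PPP1R15A differed between the lines in its response to the combination by 1.41 (adjusted p = 0.00136).

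Of the bZIP partners and stress effectors, abemaciclib raised 2 and lowered 2 of 12 in MDA-MB-231 and raised 5 and lowered 2 of 15 in MDA-MB-453. GADD45A, a growth arrest gene, rose in both, by 0.91 and 1.10 on the log2 scale. GDF15, a secreted stress hormone that ATF4, CHOP and p53 can induce, also rose in both, by 1.29 in MDA-MB-231, where it averaged under 10 CPM, and by 1.44 in the other line. ATF5, a bZIP factor under the same translational control as ATF4, had -1.24 in MDA-MB-453, and CEBPG, a partner of ATF4, had -1.35 in MDA-MB-231.

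Of the NRF2 pathway, abemaciclib raised 2 and lowered 4 of 13 genes in MDA-MB-231 and raised 1 and lowered 2 of 12 in MDA-MB-453. GCLM, the modifier subunit of glutathione synthesis, had -0.96 in MDA-MB-231. Of the genes of mTORC1 amino acid sensing and inhibition, it raised 2 and lowered 2 of 14 in MDA-MB-231 and raised 1 and lowered 3 of 15 in MDA-MB-453. SEH1L, a GATOR2 and nuclear pore subunit, had -0.75 and -1.19. Fulvestrant alone called none of the 116 list genes in MDA-MB-231 (8 at an unadjusted p under 0.05, and 0 of all genes) and 2 of the 117 in MDA-MB-453, both lower, among them the NRF2 target NQO1 with a log2 fold change of -0.31 (adjusted p = 0.0489).

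**Figure D4:**
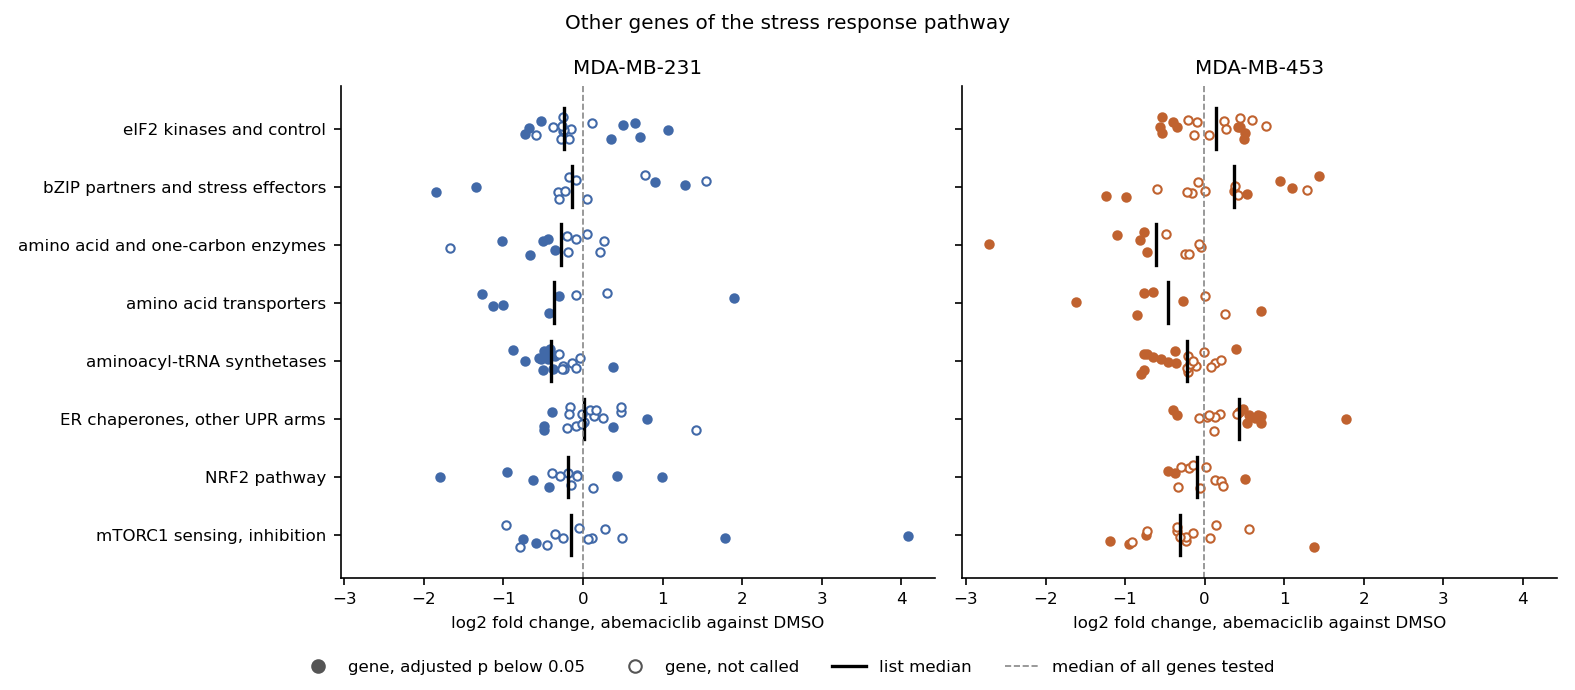
log2 fold change with abemaciclib against DMSO (horizontal axis) of each tested gene in the 8 pathway lists, in MDA-MB-231 (left) and MDA-MB-453 (right); filled points have an adjusted p below 0.05, the black bar is the list median and the dashed line the median of all genes tested. The medians of the enzyme, transporter and synthetase lists lie left of 0 in both lines, and that of the ER chaperone list lies at 0.44 in MDA-MB-453.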

How the data were processed

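The 10 genes and the 8 pathway lists were chosen with earlier results of these data known. The deposited table holds raw counts per gene, which the authors made by trimming reads, aligning them to hg38 with STAR and counting them with featureCounts on a GENCODE annotation. Strand, multiple alignments, duplicates and molecular identifiers were not given in the sources used here, so floors cover counting error only. The study gives 3 independent biological replicates per group. The table has 59610 lines, 1 of which names no gene and holds 0 counts.

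Models were fitted to the counts with edgeR 4.0.16 under R 4.3.3 (filterByExpr, TMM, quasi-likelihood test), over the 12 libraries of each line, or over all 24 for comparisons between lines. CPM values were scaled by TMM over all 24 libraries. Calls were made at a Benjamini-Hochberg adjusted p below 0.05, and all tests were 2-sided. The scripts were tested on simulated data. From each list, at most the 2 called genes with the largest rise and the 2 with the largest fall averaging at least 10 CPM were eligible to be named; 2 genes are not reported here. Positions and shared exons came from GENCODE v44 on GRCh38, a later release than the authors counted on, and sequences from RefSeq. Alternatives were DESeq2 1.42.0, its size factors in edgeR, no filter on low counts, only the groups compared, a replicate block, no mitochondrial genes, and each replicate left out.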

Additional observations from a re-analysis of the deposited data

Results flagged for a closer look

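The response to treatment differed between the lines for 4 of the 8 genes that could be compared, by edgeR's test of the difference itself, where 20.7% of all genes differed for abemaciclib and 17.7% for the combination. Under abemaciclib, the log2 fold change in MDA-MB-453 exceeded that in MDA-MB-231 by 0.49 for ATF4 and 1.77 for DDIT3, and the difference was -1.18 for DDIT4 and -2.11 for PHGDH. The calls for ATF4 and DDIT3 under abemaciclib were lost on leaving out any of 5 and any of 6 single libraries, with adjusted p up to 0.129 and 0.191 and values down to 0.32 and 1.25. Under the combination the differences were 0.98 for ATF4, 3.04 for DDIT3, -0.90 for DDIT4 and -2.35 for PHGDH. The line, its medium and its starting level of each gene cannot be told apart. Under DMSO, DDIT4, PHGDH and ATF4 were higher in MDA-MB-453, by 4.77, 1.98 and 0.59 on the log2 scale, and DDIT3 was lower there.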

How the results depend on the processing

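The counts of called genes among the 10 stress response genes and the pathway lists were recomputed under the alternatives 192 times, and 187 stayed within 1.5 times of the reported count. The other 5 left out 1 library each. Leaving out each library in turn, the number of the 10 stress response genes called in MDA-MB-231 ranged from 2 to 3 for abemaciclib and from 2 to 4 for the combination. The same ranges for MDA-MB-453 were 4 to 5 and 5 to 6. For fulvestrant against DMSO in each line, and for the combination against abemaciclib in MDA-MB-231, it was 0 throughout. For the combination against abemaciclib in MDA-MB-453 it ranged from 1 to 3, the lowest without combination replicate 1. For the difference in abemaciclib response it ranged from 2 to 4, and was 2 without MDA-MB-231 abemaciclib replicate 1 and without MDA-MB-453 DMSO replicate 1, DMSO replicate 3 or abemaciclib replicate 1. For the combination response it was 4 throughout, and between the lines under DMSO 9 throughout. Pathway list genes called lay between 42 and 51 for abemaciclib and between 41 and 47 for the combination in MDA-MB-231, and between 48 and 54 and between 54 and 61 in the other line. No range passed the reported number. For the combination in both lines, and for abemaciclib in MDA-MB-453, the reported number lay above the whole range. Of 1248 single values of the stress response genes, 14 lost a call and 7 gained one, and none of the called values changed sign. Of 1128 values of the named list genes, 80 lost their call and none changed sign. For the stress response genes, 46 values without a call changed sign, with reported sizes up to 0.55 on the log2 scale.

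The correlations showed no pairing of the libraries by replicate number. Of 18 correlations between same-numbered libraries in each line, 0 exceeded 0.1. In MDA-MB-231 1 of 12 libraries, and in MDA-MB-453 0 of 12, correlated best with their own number in every other group at once. Few libraries would meet so strict a rule without pairing, so this count alone cannot decide. With a replicate block, 2, 0 and 3 of the stress response genes were called for abemaciclib, fulvestrant and the combination in MDA-MB-231 and 4, 0 and 6 in MDA-MB-453, as reported, and the calls of all genes for fulvestrant in MDA-MB-453 were 111 in place of 156. DESeq2 called 55 genes for the combination against abemaciclib in MDA-MB-231 where edgeR called 3, and 294 in place of 156 for fulvestrant in MDA-MB-453. Low counts limit DDIT3 in both lines, and CHAC1 and TRIB3 in MDA-MB-231, where intervals were wide.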
